A study of Saccharomyces cerevisiae with 17 samples.

Results

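The 10 genes described here encode enzymes, a transporter and transcription factors for growth without a fermentable sugar, which budding yeast keeps at low levels when glucose is plentiful. They were chosen by name, with earlier results of these data known: MLS1, ICL1, FBP1, PCK1, SIP4, ADH2, ACS1, ADR1, CAT8 and JEN1. All 10 were found among 7125 named features. Their transcript levels were followed across 17 RNA sequencing libraries of Saccharomyces cerevisiae, made to study the control of phosphate genes. Every strain came from BY4741, a laboratory haploid (mating type a) in which LEU2, MET17, URA3 and part of HIS3 are deleted, and each culture was grown with 7.2 mM phosphate, washed, and kept for 60 min with 7.2 or 0 mM phosphate. Experiment 1 held BY4741 at 7.2 mM (libraries 10, 11 and 13) and at 0 mM (14, 16 and 17), a strain without SPL2 at 7.2 mM (7 and 18) and at 0 mM (12, 19 and 20), and a strain without BMH1 at 7.2 mM (2). Experiment 2 held BY4741 (B) and a strain without RRP6 (C and D), and experiment 3 held BY4741 (A-1) and a strain that lacks block P, a segment of the SPL2 promoter (A-3), all at 7.2 mM. The series description and the sample labels differ on whether the spl2 deletion had 3 cultures with or without phosphate, and the labels were followed. Replicates were independent cultures, by the series description. Phosphate was given as the potassium salt in supplemented yeast nitrogen base, so potassium can differ with it, and the carbon source is not given in the sources used here.

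When glucose runs out, the kinase Snf1 becomes active, the repressor Mig1 leaves the nucleus, and the activators Adr1, Cat8 and Sip4 switch on genes for ethanol, acetate and lactate. Ethanol is oxidised by the alcohol dehydrogenase Adh2, acetate is activated to acetyl-CoA by Acs1, the glyoxylate enzymes Icl1 and Mls1 turn acetyl-CoA into 4-carbon acids, and Pck1 and Fbp1 carry the steps of gluconeogenesis that glycolytic enzymes cannot reverse. Jen1 imports lactate. Cat8 and Sip4 bind a promoter element called CSRE (carbon source-responsive element), and Adr1 activity is known to be held back by 14-3-3 proteins, of which BMH1 encodes one.

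The CSRE letters are shown because they divided the 10 genes in the same way as the response to loss of RRP6 described further on. The search was made after that response was known. It looked for CC, any 6 bases and then CCG, on both strands of the 600 bases before each coding start in the RefSeq R64 genome; the build used by the authors is not given in the sources used here. Of 5999 promoters 24.7% held these letters, as did 7 of the 10 genes; matches that overlap each other were counted separately. For each of the 7 genes the match farthest from the coding start is printed 5′ to 3′ on the strand of the gene, with the matched letters in capitals and 7 bases on either side.
MLS1, chrXIV:405820-405844, plus strand, 531 bases before the coding start: ttgctatCGGCTCAATGGaaatccc
ICL1, chrV:287295-287319, minus strand, 398 bases before: caggtttCCATTCATCCGagcgatc
FBP1, chrXII:875279-875303, minus strand, 504 bases before: tcttttcCGGACGGATGGaatcgcc
PCK1, chrXI:630583-630607, plus strand, 562 bases before: acgctgaCGGGTGAATGGagatctg
SIP4, chrX:265644-265668, plus strand, 275 bases before: attttcgCCGTTCGACCGgtgtttt
ADH2, chrXIII:874798-874822, minus strand, 478 bases before: ttatgatCCGTCTCTCCGgttacag
ACS1, chrI:45430-45454, minus strand, 425 bases before: atcatctCGGACGAACGGcgtagca
MLS1 held 6 such matches, FBP1, PCK1, ADH2 and ACS1 held 3 each, SIP4 held 2 and ICL1 held 1. The windows of ADR1, CAT8 and JEN1 held none, which says only that these letters are not in those windows. The core letters TTGGNG, as bound by Adr1, stood on either strand before 6 of the 10 genes (ACS1, ADR1, ICL1, SIP4, JEN1 and ADH2) and before 59.8% of all promoters. The letters GGGG preceded by CC, CT, GC or GT, as bound by Mig1, stood on either strand before 5 of the 10 genes (ICL1, PCK1, FBP1, CAT8 and MLS1) and before 27.8% of all promoters.

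The libraries held 17456154 to 44667485 recovered reads, and 3 reads were worth 0.0672 to 0.172 RPM (reads scaled to the same total in every library). The targeted genes followed the labels: SPL2 had at most 0.21 RPM in the spl2 deletion, BMH1 had 1.46 RPM in the bmh1 deletion, and RRP6 had 0 reads in both rrp6 deletion libraries. LEU2, MET17 and URA3 had 0 reads in all 17 libraries, and STE2, the receptor gene of mating type a, stood at 419.6 to 624.3 RPM. Of 4 genes of the other mating type, MF(ALPHA)1 ran from 0.134 to 0.565 RPM, MF(ALPHA)2 from 0.0672 to 8.9, STE3 from 3.56 to 11.9 and SAG1 from 17.5 to 44.2 RPM. Reads of the 2 strands of DNA were not kept apart in the same way in all experiments. HYP2, a translation factor gene, stood at 0.0787 to 0.586 RPM in the 15 libraries of experiments 1 and 2 and at 470.1 to 596.5 RPM in the 2 libraries of experiment 3. YEL034C-A, an uncertain reading frame on the other strand of the same place, stood at 1234 to 1639 RPM in experiments 1 and 2 and at 1.16 to 1.64 RPM in experiment 3. BUD19, which lies opposite the ribosomal protein gene RPL39, likewise stood at 2538 to 5723 RPM against 0.492 to 1.9 RPM. RPL39 itself stood at 75.9 to 329 RPM against 2388 to 2405 RPM. GPM1 and PGK1 kept high values in experiments 1 and 2, at 5596 to 7939 and 3351 to 6673 RPM. The reading frames opposite them, YKL153W and YCR013C, stood at 952 to 2330 and 329 to 577 RPM there. In experiment 3 the same frames stood at 1.01 to 1.48 and 0.738 to 1.46 RPM. These reading frames were picked after their values were seen. In RefSeq R64 no annotated gene overlaps any of the 10 genes, but in experiments 1 and 2 RNA from the opposite strand of a gene cannot be told apart from its own, and levels are not comparable with those of experiment 3.

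At 7.2 mM phosphate the mean levels of the 10 transcripts in BY4741 of experiment 1 ran from 5.62 RPM for MLS1 to 80 RPM for ICL1. Per kilobase of coding length ICL1, for isocitrate lyase, had the highest level, 47.8 ± 2.07 RPM per kb (SD, n = 3). ADH2 followed at 27.8 ± 1.74 and ACS1 at 12.7 ± 0.377 RPM per kb. PCK1, for phosphoenolpyruvate carboxykinase, and FBP1, for fructose-1,6-bisphosphatase, stood at 7.58 ± 0.395 and 7.55 ± 0.551 RPM per kb, and their ranges overlapped. The activator gene ADR1 at 6.12 ± 0.725 and the transporter gene JEN1 at 5.55 ± 0.56 RPM per kb also overlapped. SIP4 at 4.83 ± 0.0441, MLS1, for malate synthase, at 3.37 ± 0.189, and CAT8 at 2.45 ± 0.383 RPM per kb closed the order without overlap between them. ADH2 needs care, because its coding sequence is 88.8% identical to that of ADH1, with a longest identical run of 189 bases, and ADH1, the main fermentative alcohol dehydrogenase gene, stood at 7907 RPM. The sources do not say how reads that match both genes were counted. MLS1 and its copy DAL7 were 74% identical with a longest run of 19 bases, ACS1 and ACS2 59.7%, and ICL1 and ICL2 52.8%.

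**Figure D1:**
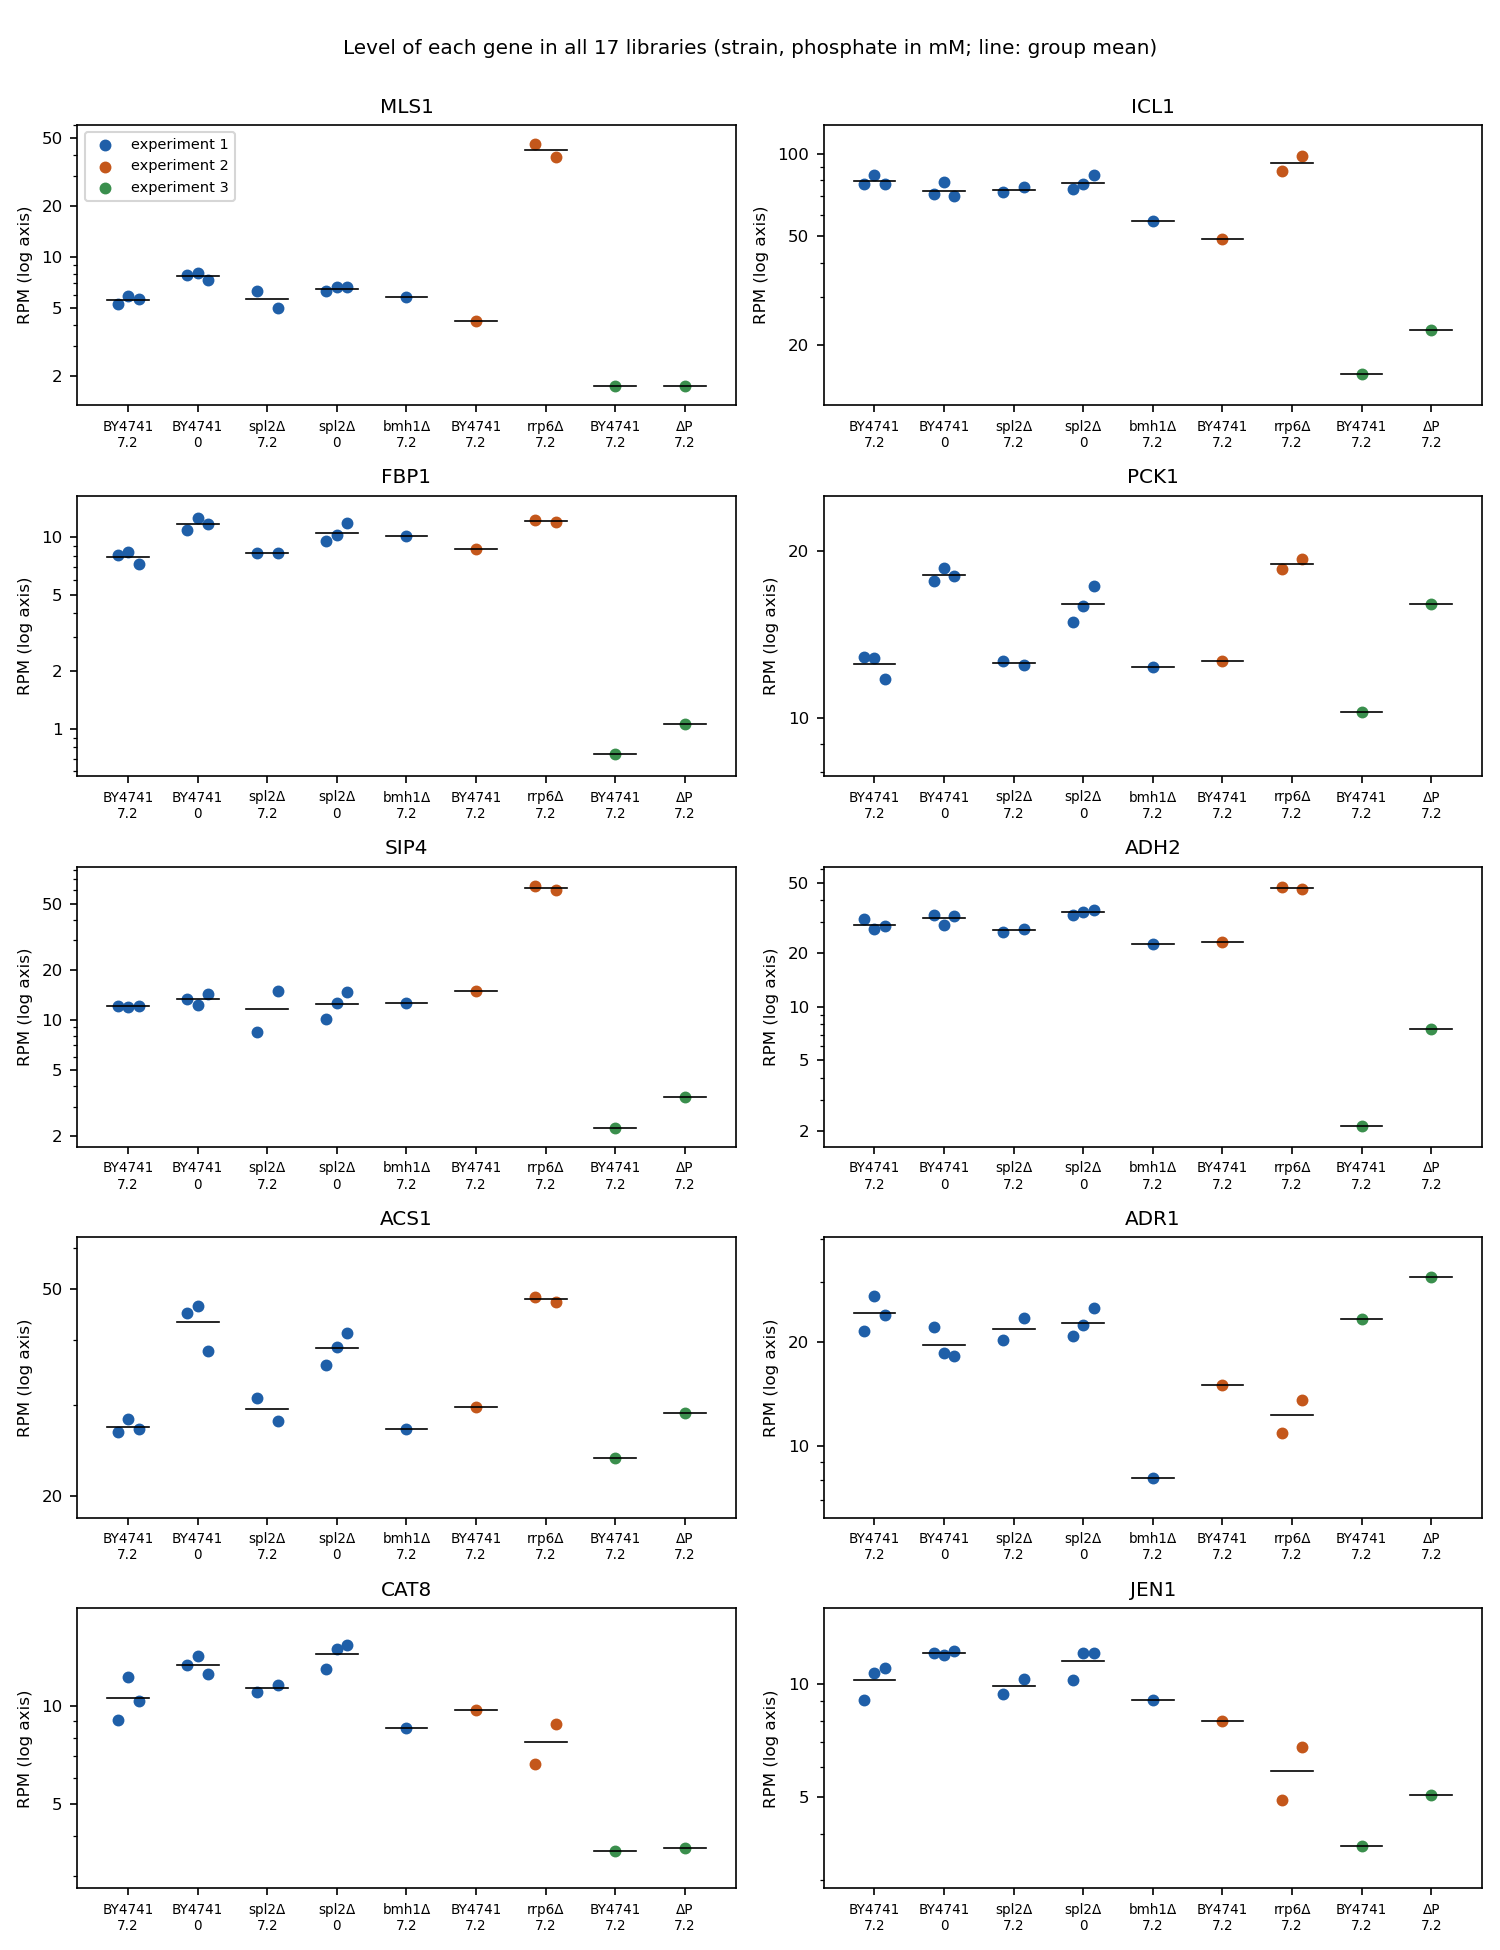
RPM of each of the 10 genes on a log axis in all 17 libraries, 1 point per library, with a line at each group mean; the labels under the axis give strain and phosphate in mM, and the colours give the experiment. MLS1 and SIP4 stand apart in the rrp6 deletion at 39.1 to 46.2 and 60.4 to 64.1 RPM, ADR1 is lowest in the bmh1 deletion at 8.07 RPM, and FBP1 and ADH2 are lowest in experiment 3.

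Loss of Rrp6, the exonuclease subunit of the nuclear exosome, gave the largest changes. The question of this comparison was how transcript levels differ when nuclear RNA breakdown is impaired. Relative to BY4741 of the same experiment 7 of the 10 genes rose and 1 fell, where 15.9% of 6039 tested features rose and 24.6% fell. The median log2 change (log2 of the fold change) was 0.61 for the 10 genes and -0.08 for all tested features. Because the genes were chosen with earlier results of these data known, these shares and medians describe them and are no independent test. The p-values below are from limma with Benjamini-Hochberg adjustment over all tested features, and the lone control is taken to vary as the replicated groups do.

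MLS1 rose most of the 10 genes. It stood at 4.18 RPM in BY4741 and at 46.2 and 39.1 RPM in libraries C and D, so that both deletion libraries lay far above the control. The ratio of means was 10.2, and the log2 change was 3.07 ± 0.133 (SE; adjusted p = 1.09e-11). In bulk cultures more RNA per cell and more cells with the RNA cannot be told apart. DAL7, the malate synthase copy, stood at 41.4 RPM in BY4741 and 47.2 RPM in the deletion and did not pass the test (log2 change 0.18 ± 0.0901 SE, adjusted p = 0.113). SIP4, for an activator that binds the CSRE, stood at 14.8 RPM in BY4741 and at 64.1 and 60.4 RPM in the deletion libraries. That is a ratio of 4.2 and a log2 change of 2 ± 0.214 (SE; adjusted p = 1.21e-06). CAT8, for the other CSRE activator, stood at 9.69 RPM against 6.66 and 8.82 RPM and did not pass (log2 change -0.3 ± 0.161 SE, adjusted p = 0.144). The SIP4 transcript was thus called higher, while CAT8 lay below the lone control in both deletion libraries without a call.

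The other enzymes of the group rose by less. ADH2 stood at 23.2 RPM in BY4741 and at 47.4 and 45.9 RPM without RRP6, a log2 change of 0.98 ± 0.0949 (SE; adjusted p = 3.86e-07). ADH1 moved the other way, by -0.3 ± 0.0992 (SE; adjusted p = 0.0238). ICL1 stood at 48.9 RPM against 86.6 and 98.4 RPM, a log2 change of 0.9 ± 0.0963 (SE; adjusted p = 1.17e-06). The BY4741 libraries of experiment 1 had 78 to 84 RPM of ICL1, close under the deletion libraries, so the size of its rise depends on which control is used. ACS1 stood at 29.7 RPM against 48.4 and 47.3 RPM (log2 change 0.67 ± 0.111 SE, adjusted p = 0.000152). ACS2, the isoform used with glucose, fell by 0.37 on the log2 scale (adjusted p = 0.00254). PCK1 stood at 12.7 RPM against 18.5 and 19.3 RPM (0.54 ± 0.102, adjusted p = 0.000481). FBP1 stood at 8.62 RPM against 12.3 and 12 RPM (0.45 ± 0.128, adjusted p = 0.0105). For MLS1, SIP4, ADH2, ICL1, ACS1, PCK1 and FBP1 both deletion libraries lay above the 3 BY4741 libraries of experiment 1 at 7.2 mM.

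ADR1 and JEN1 did not share the rise. ADR1 stood at 15.1 RPM in BY4741 and at 10.9 and 13.6 RPM without RRP6 and did not pass the test (log2 change -0.28 ± 0.156 SE, adjusted p = 0.157). JEN1 stood at 7.99 RPM against 4.9 and 6.82 RPM, a log2 change of -0.4 ± 0.153 (SE; adjusted p = 0.044). Without library C the value for JEN1 was -0.2 (adjusted p = 0.334), so its call rests on that library. Without library D CAT8 passed, at -0.48 (adjusted p = 0.0386). The 7 genes that rose were those with the CSRE letters before them, and the other 3 had none. Over all tested genes with a searched promoter the letters made no such division: 15.1% of 1348 genes with the letters and 15.1% of 4131 genes without them rose.

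**Figure D2:**
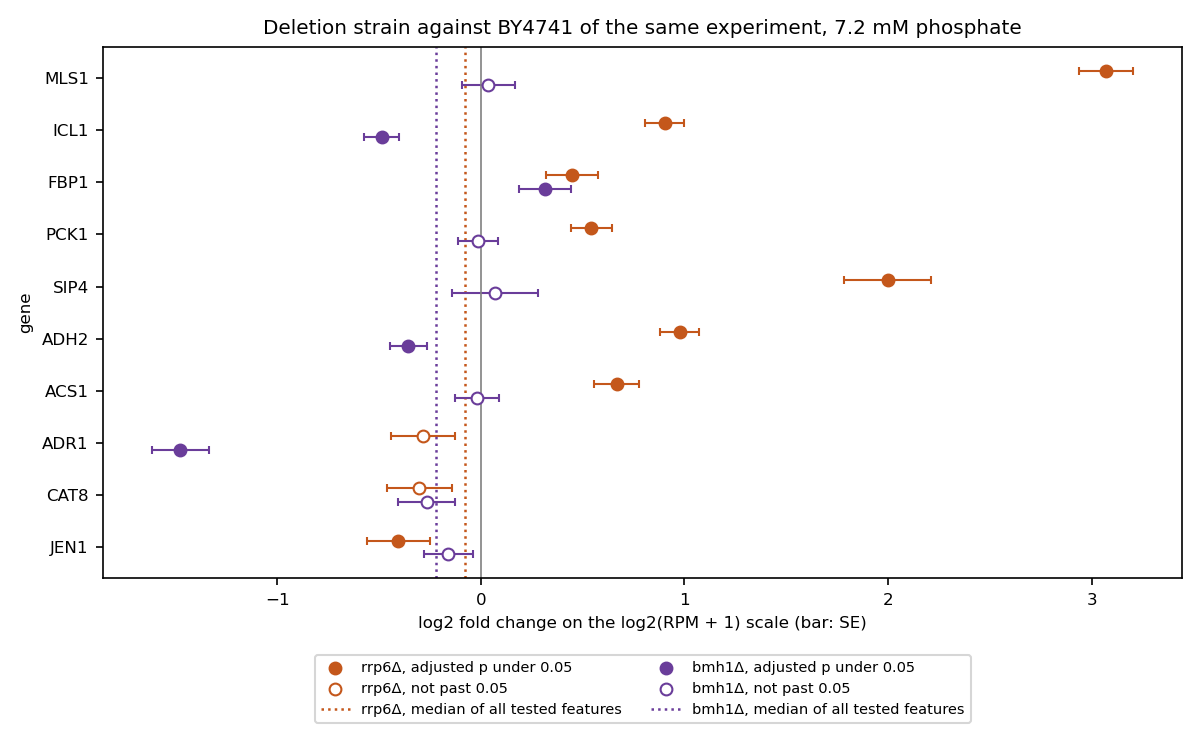
Log2 fold change of each gene in the rrp6 deletion (experiment 2, 2 libraries against 1) and in the bmh1 deletion (experiment 1, 1 library against 3), with SE as bars, filled points for adjusted p under 0.05, and dotted lines at the median of all tested features. MLS1 at 3.07 and SIP4 at 2 lead in the rrp6 deletion, and ADR1 at -1.47 stands apart in the bmh1 deletion.

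The neighbouring genes did not rise with them. DCP2 and DMA2, upstream and downstream of MLS1, stood at log2 changes of -0.18 and -0.19 in the rrp6 deletion, and neither passed. Downstream of SIP4 the arginine synthesis gene ARG3 fell by 0.84 (limma adjusted p = 1.43e-06), and upstream DPB11 was at -0.17 (adjusted p = 0.229). UBP15 and YME2, on either side of ADH2, fell by 0.57 and 0.45 (limma adjusted p = 6.97e-05 and 0.000167). Whether RNA of the opposite strand took part in the rises of MLS1 and SIP4 was not tested.

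Related genes split. Of 13 other genes of the glyoxylate cycle and gluconeogenesis 3 rose and 5 fell without RRP6. IDP2, for a cytosolic isocitrate dehydrogenase, rose by log2 1.83 ± 0.122, the succinate-fumarate carrier gene SFC1 by 1.01 ± 0.166 and the citrate synthase gene CIT3 by 0.75 ± 0.137, while the aconitase gene ACO1 fell by 0.87 (limma adjusted p from 3.23e-09 to 0.000401). Of 21 genes for ethanol, acetate, lactate and glycerol none rose and 8 fell, ADH5 by 0.88 and the lactate dehydrogenase gene DLD1 by 0.56. Of 15 genes of peroxisomal fatty acid oxidation 4 rose and 6 fell, with the thioesterase gene TES1 at 0.91 and the thiolase gene POT1 at 0.7. Of 25 genes for regulators of glucose repression 5 rose and 9 fell. REG2, for a regulatory subunit of the phosphatase Glc7, rose by 2.07 ± 0.151, the repressor gene MIG3 by 0.99, HAP5, for a subunit of the respiratory activator complex, by 0.92, and ERT1, for a regulator of gluconeogenesis, by 0.75. Of 10 genes for sugar use 3 rose and 4 fell, among them the hexokinase gene HXK1 by 1.64, the activator gene GAL4 by 1.34 and the glucokinase gene GLK1 by 1.14. Of 8 genes of the GID ubiquitin ligase, which marks gluconeogenic enzymes for breakdown, 1 rose and 5 fell, FYV10 by 0.4 the most.

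Loss of Bmh1, a 14-3-3 protein, went with a lower level of ADR1. ADR1, for the activator of ADH2 that 14-3-3 proteins bind, stood at 21.6, 27.3 and 24 RPM in BY4741 and at 8.07 RPM (254 reads) in the bmh1 deletion, below all control libraries. The ratio of means was 3.01 in favour of BY4741, and the log2 change was -1.47 ± 0.138 (SE; limma adjusted p = 1.68e-06). The deletion is 1 library, taken to vary as the replicated groups do. BY4741 of experiment 2 had 15.1 RPM of ADR1, also above the deletion, so the size of the fall depends on the control. In RPM 3 of the 10 genes fell and 1 rose, where 48.8% of 5987 features fell and 15.2% rose. The count of falls is below the background on that scale. TMM scaling matches libraries on the bulk of genes: the median feature stood at -0.22 before it and at 0.00 with it. With it 2 of the 10 genes fell and 1 rose. With edgeR, which also uses TMM scaling, 3 of the 10 genes were called, against 3430 of 5987 features. The 10 genes were thus called no more often than features at large.

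ICL1 stood at 56.7 RPM without BMH1, under the 78 to 84 RPM of BY4741 (log2 change -0.49 ± 0.0854 SE, limma adjusted p = 0.000177; -0.26 after TMM scaling, adjusted p = 0.00836). ADH2 stood at 22.5 RPM, under the 27.5 to 31.1 RPM of BY4741, with a log2 change of -0.36 ± 0.0912 (SE; adjusted p = 0.00318). The call for ADH2 was lost after TMM scaling (-0.13, adjusted p = 0.197). FBP1 stood at 10.1 RPM, above the 7.27 to 8.4 RPM of BY4741 (0.32 ± 0.126, limma adjusted p = 0.0387, and 0.53 after TMM scaling, adjusted p = 0.00159), and in RPM without BY4741 library 11 or 13 its adjusted p was 0.0508 or 0.0987. CAT8 stood at 8.55 RPM and JEN1 at 9.06 RPM, each just under its 3 controls, and neither passed; CAT8 did without library 11 (-0.36, adjusted p = 0.0255). MLS1 at 5.79, PCK1 at 12.4 and ACS1 at 26.9 RPM lay within the range of BY4741. SIP4 at 12.7 RPM lay just above its range, and none of these genes passed. The controls above are those of experiment 1. BY4741 of experiment 2 had 48.9 RPM of ICL1, below the bmh1 deletion, and 23.2 RPM of ADH2, just above it. The falls of ICL1 and ADH2 thus depend on which control is used.

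In RPM genes around this pathway were mostly lower without BMH1, where the median feature also stood lower, at -0.22. With edgeR, which uses TMM scaling, 1622 of all tested features fell and 1808 rose, so a fall was no more frequent than a rise there. Of 25 regulators 16 fell and none rose (9 fell and 1 rose after TMM scaling), led by the hexokinase gene HXK2, a mediator of glucose repression, which fell by 0.94 ± 0.0851 (SE; limma adjusted p = 1.24e-06). SIP1, for a subunit of the Snf1 kinase complex, and the corepressor genes CYC8 and TUP1 fell by 0.68, 0.66 and 0.63. In the same order they stood at 29.8, 88.3 and 163.4 RPM without BMH1. BY4741 of experiment 2 had less, at 27.4, 85 and 131.1 RPM. The falls of SIP1, CYC8 and TUP1 thus depend on which control is used. Of 10 sugar use genes 6 fell and none rose (5 and 0 after TMM scaling), among them HXK1 by 1.06, GLK1 by 0.83 and the invertase gene SUC2 by 0.76. Of 21 genes for ethanol, acetate, lactate and glycerol 14 fell and 1 rose (8 and 2 after TMM scaling), with the carnitine carrier gene CRC1 falling by 0.88 and ACH1, for an acetyl-CoA hydrolase, by 0.75. Of 13 other glyoxylate and gluconeogenesis genes 8 fell and 1 rose (4 and 1 after TMM scaling), of 15 fatty acid oxidation genes 8 fell and none rose (2 and 2 after TMM scaling), and of 8 GID genes 2 fell and none rose (1 and 2 after TMM scaling). HXK2, HXK1, GLK1, SUC2, CRC1 and ACH1 were also lower in RPM without BMH1 than in BY4741 of experiment 2.

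The next comparison asked how the 10 genes responded to 60 min without phosphate. In BY4741 the changes were small, and 3 genes rose on either scale: ACS1, FBP1 and PCK1. ACS1, for acetyl-CoA synthetase, stood at 26.6, 28.1 and 27 RPM with phosphate and at 45, 46.4 and 38.1 RPM without, and the groups did not overlap. Its log2 change was 0.64 ± 0.0758 (SE; limma adjusted p = 7.32e-06), and 0.43 after TMM scaling (adjusted p = 0.000526). FBP1 stood at 8.05, 8.4 and 7.27 RPM with phosphate and 10.9, 12.6 and 11.7 RPM without (0.51 ± 0.0889, adjusted p = 0.000179, and 0.32 after TMM scaling). PCK1 stood at 12.9, 12.8 and 11.7 RPM with phosphate and 17.6, 18.6 and 18 RPM without (0.5 ± 0.0696, adjusted p = 2.99e-05, and 0.3 after TMM scaling). The 2 genes of gluconeogenesis thus changed by nearly the same amount, with no overlap between groups.

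In all 6 of the 10 genes rose and 1 fell in BY4741, where 60.9% of 6015 features rose and 6.68% fell. After TMM scaling 3 rose and 2 fell, where 18% rose and 20.4% fell. The share that rose is near the background on each scale, and the median feature moved by 0.21 before TMM scaling and by 0.01 with it. MLS1 at 0.4 ± 0.0902, CAT8 at 0.32 ± 0.0974 and JEN1 at 0.22 ± 0.0858 (SE) passed on the RPM scale with limma adjusted p = 0.00141, 0.00874 and 0.0318, and none passed after TMM scaling (adjusted p = 0.0736, 0.274 and 0.806). ADR1 stood at 21.6, 27.3 and 24 RPM with phosphate and 22.2, 18.6 and 18.2 RPM without, and the groups overlapped. It fell by 0.29 ± 0.0977 on the log2 scale (SE; adjusted p = 0.0158) and by 0.49 after TMM scaling (adjusted p = 0.000568). Leaving out library 10, 16 or 17 ended that call on the RPM scale (adjusted p = 0.0913, 0.0567 and 0.0674). ICL1, at 70.2 to 79 RPM without phosphate, was at -0.12 ± 0.0604 on the RPM scale (adjusted p = 0.0865) and fell by 0.33 after TMM scaling (adjusted p = 0.000246). ADH2 and SIP4 did not pass on either scale, at 0.11 and 0.13 in RPM, and at -0.09 and -0.07 with TMM scaling. Without library 11 the call for CAT8 was lost (adjusted p = 0.0573), as was that for JEN1 without library 11, 14, 16 or 17 (0.169, 0.0664, 0.0566 and 0.0738). Without library 16 ICL1 and ADH2 passed in RPM, at -0.17 and 0.17 (adjusted p = 0.0275 and 0.0445).

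**Figure D3:**
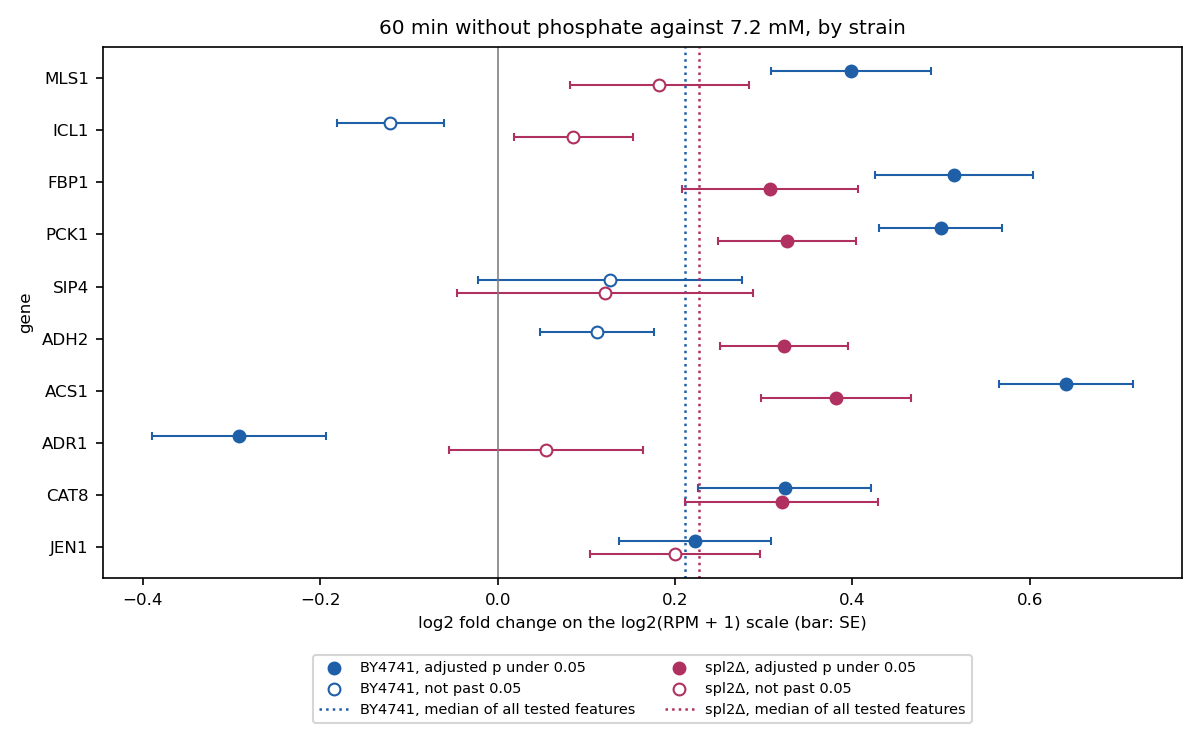
Log2 fold change of each gene after 60 min at 0 mM against 7.2 mM phosphate in BY4741 (3 libraries each) and in the spl2 deletion (3 against 2), with SE as bars, filled points for adjusted p under 0.05, and dotted lines at the median of all tested features, 0.21 and 0.23. ACS1 at 0.64, FBP1 at 0.51 and PCK1 at 0.5 of BY4741 lie farthest to the right of its dotted line.

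Among the related genes in BY4741 the largest rises were those of the sugar kinase genes GLK1 and HXK1. GLK1 rose 2.02-fold and HXK1 2-fold, from 270.3 and 149.6 RPM (log2 changes of 1.02 ± 0.0752 and 1 ± 0.103 SE; limma adjusted p = 4.95e-08 and 1.86e-06). Of the 10 sugar use genes 7 rose and none fell, and 2 and 1 after TMM scaling. Of 25 regulators 19 rose and 1 fell (7 and 3 after TMM scaling), with REG2 at 0.87 and USV1, for a transcription factor, at 0.7. Of 13 other glyoxylate and gluconeogenesis genes 5 rose and 5 fell (2 and 7 after TMM scaling). ICL2, for a mitochondrial lyase related to Icl1, rose by 0.61, DAL7 by 0.47 and SFC1 by 0.41, while ACO1 fell by 0.32. Of 15 fatty acid oxidation genes 11 rose (3 and 2 lower after TMM scaling), the reductase gene SPS19 by 0.72, and of 21 genes for ethanol, acetate, lactate and glycerol 10 rose and 5 fell (4 and 7 after TMM scaling). Of 8 GID genes 7 rose and none fell, and 7 rose and 1 fell after TMM scaling, with RMD5, FYV10 and VID28 at 0.51, 0.49 and 0.47.

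In the strain without SPL2, which encodes a small regulator of low-affinity phosphate uptake, 5 of the 10 genes rose and none fell on the RPM scale, where 57.3% of 6033 features rose and 8.75% fell. ACS1 stood at 30.8 and 27.9 RPM with phosphate and at 35.8, 38.8 and 41.2 RPM without, and the groups did not overlap (log2 change 0.38 ± 0.0847 SE, limma adjusted p = 0.00111). PCK1 stood at 12.7 and 12.5 RPM against 14.9, 15.9 and 17.3 RPM (0.33 ± 0.0778, adjusted p = 0.00186). ADH2 stood at 26.5 and 27.5 RPM against 32.8, 34.3 and 35.1 RPM (0.32 ± 0.0722, adjusted p = 0.00116). CAT8 and FBP1 rose by 0.32 and 0.31 (adjusted p = 0.0174 and 0.0133). The median feature was 0.23 higher in RPM, and these values lie little above it. The call for FBP1 was lost without library 7 or 20 (adjusted p = 0.0537 and 0.0676) and that for CAT8 without library 7, 19 or 20 (0.0951, 0.0504 and 0.0589). MLS1 passed without library 7, at 0.32 (adjusted p = 0.0319), and JEN1 without library 12, at 0.27 (adjusted p = 0.0219). After TMM scaling, where 21% of features rose and 23.2% fell, none of the 10 genes passed with limma, and 1 had an unadjusted p under 0.05. With edgeR on the recovered reads ICL1 alone was called, lower at -0.15 (adjusted p = 0.0498), and with DESeq2 none. SIP4 stood at 8.43 and 14.9 RPM with phosphate and at 10.1, 12.6 and 14.6 RPM without, and its value depended on the library: 0.5 without library 18 (adjusted p = 0.00692) and -0.26 without library 7 (adjusted p = 0.14).

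The difference between the responses of the strains was tested as an interaction. None of the 10 genes passed with limma, and 4 had an unadjusted p under 0.05; edgeR and DESeq2 also called none. Over all features 14.5% of 6071 passed. The values ran from -0.26 ± 0.114 for ACS1 (adjusted p = 0.136) to 0.35 ± 0.147 for ADR1 (SE; adjusted p = 0.123). Without library 17 the value for ACS1 was -0.35 (adjusted p = 0.031). Among the related genes HXK1 and GLK1 responded less in the spl2 deletion, by -0.86 ± 0.154 and -0.66 ± 0.113 (SE; limma adjusted p = 0.00244 and 0.00196). The interaction was -0.68 for USV1 and -0.54 for UBC8, for a ubiquitin-conjugating enzyme that works with the GID ligase (limma adjusted p = 0.00503 and 0.00153). Mean USV1 went from 12.3 to 20.5 RPM in BY4741 and from 15.3 to 15.5 RPM in the spl2 deletion. Mean UBC8 went up from 30.3 to 40.6 RPM in BY4741 and down from 34.4 to 31.4 RPM in the deletion. MAE1, for the malic enzyme, had an interaction of 0.37 with opposite directions in the 2 strains. Its mean went from 398.5 to 356.1 RPM in BY4741 and from 363.5 to 420.8 RPM in the spl2 deletion. The corepressor gene TUP1 responded more in the deletion, by 0.23, while ATO2 and ECI1 stood at -0.39 and -0.35.

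At a fixed phosphate level no gene of the 10 was called between the spl2 deletion and BY4741. At 7.2 mM the log2 changes ran from -0.14 ± 0.109 for ADR1 to 0.1 ± 0.0846 for ACS1 (SE), no member had an unadjusted p under 0.05 with limma, and neither edgeR nor DESeq2 called any. Only 0.5% of 6002 features passed there. At 0 mM the values ran from -0.21 ± 0.09 for MLS1 to 0.2 ± 0.0977 for ADR1 (SE), 2 members had an unadjusted p under 0.05, edgeR and DESeq2 called none, and 13.1% of 6031 features passed. MLS1 stood at 6.3, 6.66 and 6.64 RPM in the spl2 deletion and at 7.82, 8.06 and 7.29 RPM in BY4741 at 0 mM, so the groups did not overlap although the adjusted p was 0.132. Without BY4741 library 17 the value for ACS1 at 0 mM was -0.24 (adjusted p = 0.0359).

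BY4741 at 7.2 mM was sequenced in all 3 experiments, and several of the 10 genes differed widely between them. FBP1 stood at 7.27 to 8.4 RPM in experiment 1, at 8.62 RPM in experiment 2 and at 0.739 RPM (33 reads) in experiment 3. ADH2 stood at 27.5 to 31.1, 23.2 and 2.13 RPM in the same order, and SIP4 at 11.9 to 12.1, 14.8 and 2.24 RPM. ICL1 stood at 78 to 84, 48.9 and 15.6 RPM. By contrast ACS1 at 23.7, PCK1 at 10.3 and ADR1 at 23.3 RPM in experiment 3 were within 1.22-fold of the mean of experiment 1. Of the 10 genes 7 were at least 2-fold lower in experiment 3 than the mean of experiment 1, against 10.2% of 5950 features, and the median ratio was 3.08 for the 10 genes and 1.05 for features. Experiment 3 has 1 such library and a different treatment of strand in the table, and culture, experiment and counting cannot be told apart.

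The last pair compared the strain without block P of the SPL2 promoter with BY4741, 1 library each, so there is no test over cultures, and the intervals cover counting error only. ADH2 differed most: 7.49 RPM (274 reads) against 2.13 RPM (95 reads), a ratio of 3.52 with an exact 95% interval of 2.78 to 4.5. ADH1 stood at 11890 and 11210 RPM in the same libraries, a ratio of 1.06. PCK1 stood at 16.1 against 10.3 RPM (ratio 1.57, 1.39 to 1.78), and ICL1 at 22.6 against 15.6 RPM (1.45, 1.31 to 1.61). SIP4 had a ratio of 1.53, FBP1 of 1.44, JEN1 of 1.36, ADR1 of 1.33 and ACS1 of 1.22, while MLS1 and CAT8 were at 1.002 and 1.023. At a ratio of 1.3, a limit set after the values were seen, 7 of the 10 genes were higher and none lower, where 8.47% of 5752 features were higher and 3.77% lower. The counting interval lay above 1 for 7 genes and below 1 for none, against 31.6% and 30.6% of features; the exceptions were MLS1, FBP1 and CAT8.

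**Figure D4:**
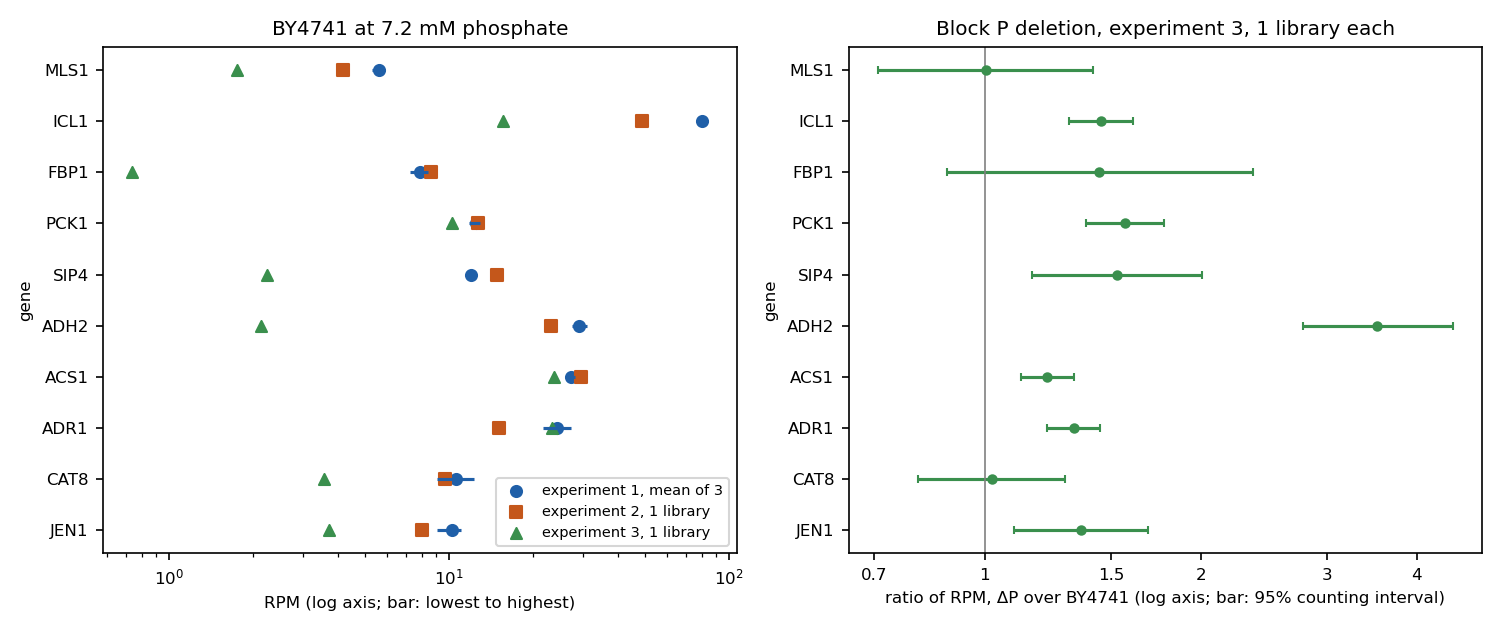
Left, RPM of each gene on a log axis in BY4741 at 7.2 mM phosphate, as the mean and range of 3 libraries of experiment 1 and the single libraries of experiments 2 and 3. Right, ratio of RPM of the block P deletion over BY4741 in experiment 3 on a log axis, with exact 95% intervals for counting error; ADH2 at 3.52 is the highest.

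Over the 12 libraries of experiment 1 the features with the most similar profile of log2(RPM + 1) were found among 6002. The highest Pearson correlations were 0.98 for ADH2 with DUS1, for PCK1 with CLB5, for ACS1 with ARR1 and for ADR1 with RAX2. MLS1 was closest to ERR3 at 0.93, ICL1 to ECM22 at 0.94, FBP1 to ARO10 and CAT8 to NFT1 at 0.96, and SIP4 to YDL158C and JEN1 to PRP45 at 0.95. No gene of the 10 was closest to another of them, but each best match is the highest of 6002 features, a choice that favours high values. Between the 10 genes themselves the correlations ran from -0.24 for FBP1 with ADR1 to 0.96 for PCK1 with ACS1. These libraries share the shift of the median feature with phosphate, which such correlations also reflect.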

How the data were processed

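Per the labels' protocols, RNA was isolated with a kit for yeast and made into stranded mRNA libraries. How reads were aligned and counted, on which build and with which use of strand is not given in the sources used here. The authors deposited RPM, reads scaled to 1 common total per library, for 7125 features in 1 table. At a tolerance of 0.001 reads 100% of these values were whole multiples of 1 read, and reads were recovered on that basis. By the growth protocol libraries with and without phosphate can share an overnight culture, which the tests ignore. Within each group every pair of libraries differed by more than sampling noise (chi-square per gene 3.79 to 26.4). The spread was uneven in BY4741 of experiment 1. Libraries 11 and 13 were close (3.79), and 10 stood apart from them (26.04 and 23.51). At 0 mM 14 and 16 were close (4.9), and 17 stood apart from them (20.48 and 21.51). The cause was not tested.

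The main test was limma 3.58.1 in R 4.3.3, with its trend on mean level, run on log2(RPM + 1) over all features with at least 1 RPM in as many libraries as the smaller compared group, and in at least 2. P-values were adjusted by Benjamini-Hochberg with a threshold of 0.05. Fold changes on this scale understate changes of low features; ratios are of mean RPM. For rrp6 the model held the 15 libraries of experiments 1 and 2, and for all else the 12 of experiment 1. The fit was also run on simulated data, which held no shift of the median feature and so cannot test the dependence on scaling. edgeR 4.0.16 and DESeq2 1.42.0 on recovered reads, TMM scaling and other settings were alternatives. Related genes named are among the 4 of a list with the largest change past the threshold. Genes and lists were chosen with earlier results of these data known.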

Additional observations from a re-analysis of the deposited data

How the results depend on the processing

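Of 940 values of single genes under the alternatives, 825 kept their direction and their side of the threshold, 46 lost and 12 gained a call, and 57 changed sign; none of the 57 was among the 24 calls reported. The main dependence was on scaling. With TMM scaling, edgeR and DESeq2, 3 genes rose and 2 fell in BY4741 without phosphate, and 0 rose in the spl2 deletion (1 fell with edgeR). For rrp6 the count of falls was 0 with a pseudocount of 5, without the filter and with DESeq2. Leaving out each library in turn gave 4 to 6 rises and 0 to 1 falls in BY4741 without phosphate, 3 to 6 rises in the spl2 deletion, 0 to 1 lower calls for the interaction and for the strains at 0 mM, 0 to 1 rises and 3 to 4 falls for bmh1, and 0 to 2 falls with 7 rises for rrp6.

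Signs changed only for values without a call in the main fit, and some of the alternative values, as for SIP4, lay well away from 0. With TMM scaling, edgeR and DESeq2 in that order, BY4741 without phosphate had SIP4 at -0.0705, -0.0689 and -0.0731, and ADH2 at -0.0938, -0.0966 and -0.0979. The spl2 deletion without phosphate had MLS1 at -0.0163, -0.0239 and -0.019, ICL1 at -0.14, -0.15 and -0.14, SIP4 at -0.0911, -0.15 and -0.14, ADR1 at -0.17, -0.18 and -0.17, and JEN1 at -0.0112, -0.0122 and -0.007. The bmh1 deletion had PCK1 at 0.20, 0.22 and 0.22, ACS1 at 0.21, 0.22 and 0.22, and JEN1 at 0.051, 0.0602 and 0.0604. The interaction of CAT8 was 0.0032 with a pseudocount of 5. Leaving out libraries in turn gave, without phosphate in the spl2 deletion, -0.26 to 0.50 for SIP4 and -0.0484 to 0.16 for ADR1. For the interaction it gave -0.11 to 0.093 for CAT8, -0.0809 to 0.0552 for JEN1 and -0.38 to 0.37 for SIP4. Between the strains at 7.2 mM it gave -0.13 to 0.14 for MLS1, -0.0329 to 0.0298 for PCK1, -0.47 to 0.29 for SIP4 and -0.13 to 0.0085 for JEN1. At 0 mM it gave -0.21 to 0.0352 for SIP4 and -0.11 to 0.0005 for JEN1, and for bmh1 -0.0542 to 0.0085 for PCK1 and -0.0339 to 0.0057 for ACS1. The causes were not tested, beyond the shift of the median feature that TMM scaling removes. Over all features limma called 4068 and 3984 with and without SPL2 after phosphate removal, edgeR on recovered reads 2295 and 2677, and DESeq2 2188 and 2549; between the strains at 7.2 mM the counts were 30, 34 and 112. For rrp6 and bmh1 edgeR called 2648 and 3430. No paired analysis was possible because the groups share no replicate numbers in the labels. TMM scaling kept every ratio of the block P pair within its counting interval.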
